A study of Mus musculus with 10 samples.

Results

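The mitochondrial ribosomal protein genes of the mouse are the genes whose symbols begin with Mrpl or Mrps followed by a digit. Of 24421 genes in the deposited tables, 77 carry such a symbol, 48 named for the large subunit (Mrpl) and 29 for the small subunit (Mrps). RNA was measured by total RNA sequencing of BDF1 embryos at the 8-cell stage, freed of the zona pellucida and polar bodies, in 10 libraries that form 5 groups of 2. One group was the control (Ctrl). In siKlf5 embryos Klf5 was knocked down, and in siTfap2c embryos Tfap2c. The other 2 groups, labelled Arpc1bE_CdxE1_KO and CdxE2_KO, carried knockouts of Tfap2c motifs. Klf5 is a Krüppel-like and Tfap2c an AP-2 transcription factor, Cdx2 is a homeobox factor needed in the trophectoderm, and Arpc1b belongs to the Arp2/3 complex, which nucleates branched actin. As the submitters state it, the samples were made to compare expression at this stage between embryos in which Tfap2c was and was not interfered with. What the control embryos received, how the knockdowns were made, where the deleted motifs lie and whether the 2 libraries of a group came from separate embryo pools are not given in the sources used here, so the p-values rest on a spread between libraries that may be technical.

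The mitochondrial ribosome translates the few proteins that mitochondrial DNA encodes, which are core subunits of the respiratory chain and of the ATP synthase. Its ribosomal RNAs come from mitochondrial DNA, while all of its proteins are encoded in the nucleus, made in the cytosol and imported. The large subunit holds the peptidyl transferase centre and the exit tunnel, and the small subunit the decoding centre. In the cleavage embryo the mitochondria are those of the oocyte, and they mature in form and function towards the blastocyst.

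Values are levels on a log2(abundance + 1) scale, called log2 units here, as deposited. The kind of abundance and its correction for length were not named, so levels of different genes are set in order only as listed, and an added 1 understates the change of genes with low values. The limma test was run over every gene that reached 1 linear unit in 2 or more of the libraries fitted. A gene is said to be called where its p, adjusted over those genes by Benjamini and Hochberg, was under 0.05. The control stands in the table of the motif knockouts, so the knockdowns were compared with it across tables whose scaling may differ. The 4 motif knockout libraries had larger linear sums, 478651 to 498621 units against 388454 to 395400 in the other 6, and the median difference from Ctrl over all genes tested was 0.273 in Arpc1bE_CdxE1_KO and 0.292 in CdxE2_KO. Knockout results are therefore given as deposited and, for most of them, with every library centred on its own median over the genes tested. A knockout value not marked as centred is as deposited. The targeted genes were lower in the libraries so labelled. Klf5 differed from Ctrl by -2.90 log2 units in siKlf5 and Tfap2c by -2.60 in siTfap2c. Arpc1b differed by -1.31 in Arpc1bE_CdxE1_KO, and Cdx2 by -1.27 and -1.54 in the 2 knockouts. In siTfap2c Klf5 (-1.78), Arpc1b (-3.34) and Cdx2 (-2.02) were called lower too, and in siKlf5 Cdx2 (-1.23). Tfap2c (-0.07) and Arpc1b (-0.35) were not called in siKlf5. Of 10 markers of the 8-cell embryo at least 8 were at 1 unit or more in each group, while 10 cumulus and granulosa cell markers added up to 1.89 to 3.28 linear units, with Fshr and Inha at 0 in every library, and 6 sperm markers to 0.17 to 1.21 units. Markers of the oocyte and polar body, 7 genes that the embryo still holds from the egg, added up to 34.7 to 59.6 units, and 6 markers of the 2-cell stage to 9.45 to 14.8. In whole embryos, fewer cells of a type and less RNA per cell cannot be told apart.

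Mrps2 and Mrps33 were the members called in siKlf5. Mrpl17 and Mrpl16 were called lower in siTfap2c, and Mrps14 higher in both motif knockouts as deposited, but not with libraries centred. The promoters of these 5 members, picked after their values were seen, are shown. They are RefSeq sequences of build GRCm38.p6, the bases before the annotated start, 5′ to 3′ on the gene's strand, at chr2:28467816-28468065 (+ strand) for Mrps2, chr6:39810989-39811186 (- strand) for Mrps33, chr7:105811088-105811337 (- strand) for Mrpl17, chr19:11770165-11770414 (+ strand) for Mrpl16 and chr1:160194965-160195214 (+ strand) for Mrps14. Capitals mark matches, on either strand, to the motif letters GCCNNNGGC (AP-2), CCNCNCCC (Klf), CCGGAAG (ETS) or GCGCATGC (NRF1).
Mrps2: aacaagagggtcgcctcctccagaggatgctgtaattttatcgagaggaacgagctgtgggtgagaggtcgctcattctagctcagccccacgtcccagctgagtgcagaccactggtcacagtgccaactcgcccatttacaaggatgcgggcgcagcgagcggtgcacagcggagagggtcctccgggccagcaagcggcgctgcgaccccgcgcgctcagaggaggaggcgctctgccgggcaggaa
Mrps33: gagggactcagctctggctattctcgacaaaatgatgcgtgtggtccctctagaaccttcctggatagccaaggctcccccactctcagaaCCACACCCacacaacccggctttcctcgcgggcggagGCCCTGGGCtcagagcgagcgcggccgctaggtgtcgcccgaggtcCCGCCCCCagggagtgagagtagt
Mrpl17: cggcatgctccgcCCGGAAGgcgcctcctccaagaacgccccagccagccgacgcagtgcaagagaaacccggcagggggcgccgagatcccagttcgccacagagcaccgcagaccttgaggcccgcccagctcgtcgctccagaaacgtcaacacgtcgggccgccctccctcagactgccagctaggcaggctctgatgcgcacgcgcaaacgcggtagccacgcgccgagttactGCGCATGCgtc
Mrpl16: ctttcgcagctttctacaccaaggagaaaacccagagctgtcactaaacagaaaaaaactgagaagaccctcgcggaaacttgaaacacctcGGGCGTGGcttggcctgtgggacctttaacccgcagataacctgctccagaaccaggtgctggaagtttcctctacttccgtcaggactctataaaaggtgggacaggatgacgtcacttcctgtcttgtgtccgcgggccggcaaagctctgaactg
Mrps14: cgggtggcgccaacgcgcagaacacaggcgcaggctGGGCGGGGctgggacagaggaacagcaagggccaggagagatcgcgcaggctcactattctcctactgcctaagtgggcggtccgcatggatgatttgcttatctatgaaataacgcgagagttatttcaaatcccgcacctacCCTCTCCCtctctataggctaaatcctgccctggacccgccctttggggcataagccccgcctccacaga
The Mrps33 window is printed without its last 52 bases before the RefSeq start, which GENCODE annotates as exon. Its capitals are, from the left, a Klf match 107 bases, an AP-2 match 70 bases and a Klf match 24 bases before the end of the print, which is 159, 122 and 76 bases before the RefSeq start. The AP-2 pattern is its own reverse complement, so its match is found on both strands. In Mrpl17 the capitals are an ETS match at 237 and an NRF1 match at 11 bases before the start. All 8 bases of that NRF1 match lie in the 12 bases of the print that GENCODE annotates as exon of Mrpl17, and 24 bases of the Mrpl16 print are annotated as exon. The other matches lie outside exons of their gene, in Mrpl16 a Klf match at 158, and in Mrps14 Klf matches at 214 and 70. In Mrps2 the window held 0 matches to these letters or to AANATGGCG (YY1).

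Over the table of promoters, 68 of the 77 members had a window of 250 bases before the start, and a gene with several windows counted once if any held the motif. Mrpl15, called in both motif knockouts also with libraries centred, had no window. The ETS letters stood in 17 of 68 members, 25%, beside 17.01% of all tested genes with a window and 7.83% of all 27025 genes of the promoter table. The NRF1 letters stood in 8 of 68, 11.8%, beside 5.47% of tested genes and 2.56% of all. NRF1 and the ETS factor GABP (NRF-2) are known regulators of nuclear genes for mitochondrial proteins. The AP-2 letters stood in 10 of 68, 14.7%, beside 24.1% of tested genes and 15.4% of all, and the Klf letters in 38 of 68, 55.9%, beside 67.7% and 48.5%. The YY1 letters stood in 2 of 68, Mrpl36 and Mrps11, 2.94% beside 2.93% and 1.29%. Between the subunits, the NRF1 letters stood in 7 of 42 large and 1 of 26 small subunit genes, and the AP-2 letters in 4 of 42 and 6 of 26. These are counts of letters in a window, with no test.

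All 77 members were above 0 in all 10 libraries, and all 77 were tested in every comparison. All but Mrps36 were at 1 linear unit or more in every library. In Ctrl the means of the members ran from 1.42 to 7.30 log2 units with a median of 4.22, and 10 members held 38.1% of their summed abundance. Mrpl12, a protein of the large subunit's stalk that also binds the mitochondrial RNA polymerase, stood highest, at 7.33 and 7.26 in Ctrl. It was followed by Mrpl22, at 6.72 and 6.50, and Mrps30, at 6.50 and 6.52, whose libraries meet and which so cannot be ordered beyond their spread. Mrps30 is named for the small subunit, but its protein sits in the large one.

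At the low end were Mrpl33, at 1.85 and 1.25 log2 units in Ctrl, Mrps23, at 1.58 and 1.49, and Mrps36, at 0.97 and 1.87. Their Ctrl libraries overlap, so these 3 have no order. Mrps36 was also the member with the widest range over the 10 libraries, 1.56 log2 units, from 0.48 in siKlf5 replicate 1 to 2.04 in siTfap2c replicate 1. Its protein, despite the name, is a component of the 2-oxoglutarate dehydrogenase complex. Mrpl37, a large subunit protein with no bacterial counterpart, had the narrowest range, 0.296. The median range over members was 0.806, and 59 of 77 ranged over less than 1 log2 unit.

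The members together held 0.508% to 0.531% of the linear sum in 9 of the 10 libraries and 0.594% in Arpc1bE_CdxE1_KO replicate 1. That library stood apart in more than these genes. In it 64 of 77 members were higher than in replicate 2 of its group, with a median difference of 0.182, against a median of 0.023 and 53.4% higher among all genes. Of 84 cytosolic ribosomal proteins 79 were higher in it, by a median of 0.407, and they held 9.66% of its linear sum against 7.43% in replicate 2. The largest gap between these replicates among members was in Mrpl42, at 4.65 and 3.36. Without replicate 1, results for this knockout rest on the 1 library left.

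**Figure D1:**
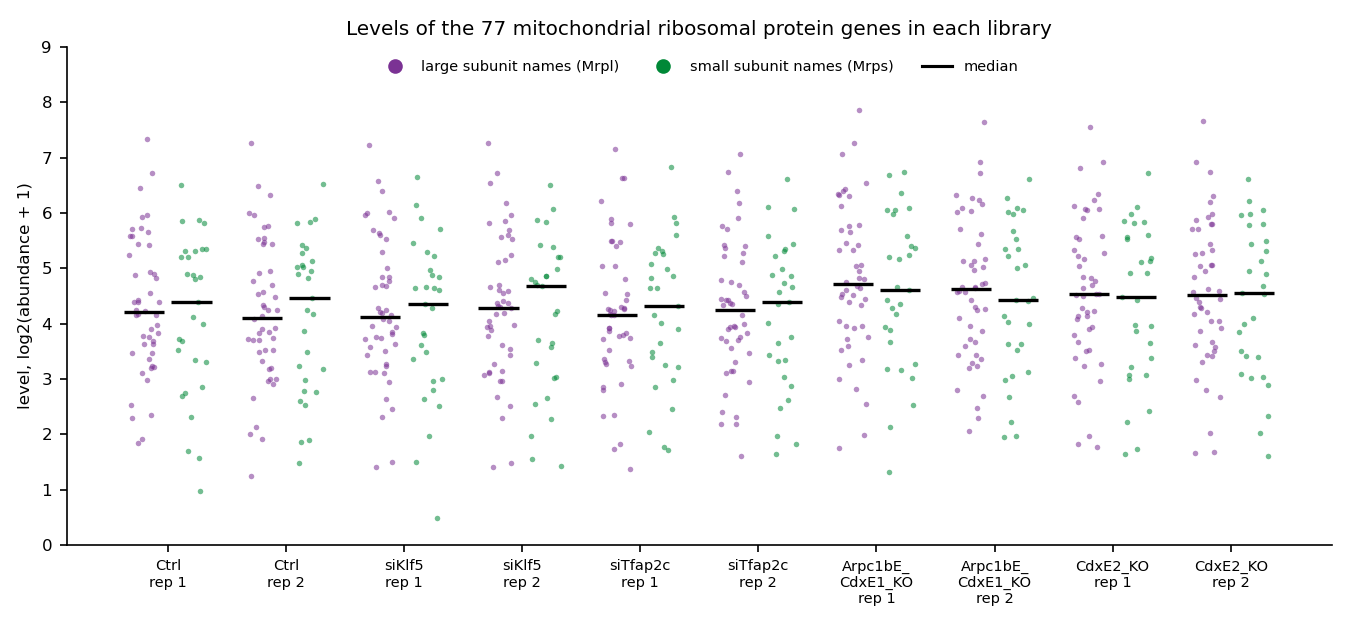
Levels of the 77 genes in log2(abundance + 1) for each of the 10 libraries, Mrpl genes in purple and Mrps genes in green, 1 point per gene, with bars at the medians. The medians over all members lie between 4.17 and 4.35 in the 6 Ctrl and knockdown libraries and between 4.54 and 4.67 in the 4 motif knockout libraries.

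In the Klf5 knockdown 2 of 77 mitochondrial ribosomal protein genes were called, both lower and both named for the small subunit. Over all genes 5.27% were called lower and 2.25% higher, and 0 members were called higher. The median difference of the members was 0.027, beside -0.019 for all genes. Mrps2, the counterpart of bacterial S2 on the back of the small subunit, was at 5.32 and 5.36 log2 units in Ctrl and at 4.61 and 4.86 in siKlf5. Both siKlf5 libraries lay below all 8 other libraries. The difference was -0.61 (SE 0.12, limma adjusted p = 0.018).

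Mrps33, a small subunit protein of the mitochondrial ribosome with no bacterial counterpart, was at 3.34 and 3.23 in Ctrl and at 2.80 and 2.66 in siKlf5. Again both siKlf5 libraries lay below all others. The difference was -0.56 (SE 0.13, adjusted p = 0.032 by limma). Leaving out 1 library at a time, Mrps2 kept its call in 1 of 4 fits (adjusted p 0.039 to 0.11) and Mrps33 in 0 of 4 (0.083 to 0.18). The only member called without siKlf5 replicate 1 was Mrpl11, higher, and the only one without siKlf5 replicate 2 was Mrps2. Over all genes, too, each fit that left out 1 library called fewer than the fit with all libraries.

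The next lowest p-values missed the threshold. Mrpl11, a protein at the base of the stalk, differed by 0.43 (limma adjusted p = 0.072), and Mrpl23, at the rim of the exit tunnel, by 0.60 (limma adjusted p = 0.13). Mrpl23 was at 3.84 and 3.52 in Ctrl and at 4.15 and 4.41 in siKlf5, with no overlap. Members whose siKlf5 libraries both lay above Ctrl numbered 17, 22.1% beside 24.9% of all genes, and 16 had both below, 20.8% beside 30.4%. With libraries centred on their medians the same 2 genes were called.

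In the Tfap2c knockdown 9 of 77 members were called, 8 lower and 1 higher. Over all genes 11.9% were called lower and 12.6% higher, against 10.4% and 1.3% of the members. The median difference of the members was 0.032 and that of all genes 0.038. The 8 lower members were Mrpl17, Mrpl21, Mrpl44, Mrpl16, Mrps27, Mrpl24, Mrps18b and Mrps26, and Mrps6 was the higher one. The same 9 were called with libraries centred on their medians.

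Mrpl17, near the exit tunnel of the large subunit, was at 3.19 and 3.17 log2 units in Ctrl and at 2.33 and 2.40 in siTfap2c, below all 8 other libraries. The difference was -0.82 (SE 0.11, limma adjusted p = 0.00071). Mrpl21, another large subunit protein shared with bacteria, was at 5.97 and 5.76 in Ctrl and at 5.05 and 5.11 in siTfap2c. These were the 2 lowest of its 10 values. It differed by -0.78 (SE 0.12, limma adjusted p = 0.0014), and these 2 calls held in all 4 fits that left out 1 library.

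Mrpl44, a large subunit protein with a ribonuclease III-like fold, was at 4.89 and 4.92 in Ctrl and at 4.17 and 4.56 in siTfap2c (difference -0.54, SE 0.15, adjusted p = 0.031 by limma). Mrpl16, which lies near the peptidyl transferase centre, was at 4.40 and 4.25 in Ctrl and at 3.74 and 3.94 in siTfap2c (difference -0.48, SE 0.12, limma adjusted p = 0.020). Both genes were below Ctrl in both siTfap2c libraries. In Mrpl44 these were the 2 lowest of the 10 values, while in Mrpl16 siKlf5, at 4.08 and 3.94, reached down to siTfap2c. Mrps27, a pentatricopeptide repeat protein of the small subunit, was at 3.69 and 3.86 in Ctrl and at 3.40 and 3.32 in siTfap2c (difference -0.41, SE 0.12, limma adjusted p = 0.034).

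Mrpl24, at the tunnel exit, differed by -0.35 (SE 0.10, limma adjusted p = 0.037), Mrps18b by -0.34 (SE 0.11, adjusted p = 0.041) and Mrps26 by -0.26 (SE 0.073, adjusted p = 0.027). For each of these 3 the siTfap2c libraries lay below both Ctrl libraries. Their calls, and that of Mrps27, were lost without any 1 of the 4 libraries compared. The highest adjusted p in such fits was 0.17 for Mrpl24, 0.21 for Mrps18b, 0.16 for Mrps26 and 0.19 for Mrps27. Mrpl16 kept its call in 2 of 4 fits, and Mrpl44 and Mrps6 in 1 of 4. Each fit that left out 1 library called fewer members than the fit with all libraries, and also fewer of all genes.

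Mrps6, the counterpart of bacterial S6, was at 3.51 and 3.19 log2 units in Ctrl and at 3.91 and 4.01 in siTfap2c, with no overlap. The difference was 0.61 (SE 0.15, limma adjusted p = 0.018). On chromosome 16 (mm10, 92058270 to 92112227, + strand) Mrps6 overlaps Slc5a3, an inositol transporter gene on the same strand, which differed by 0.57 (adjusted p = 0.0037) in the same comparison. Reads of the overlap could belong to either gene.

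Others of these genes also overlap a neighbour or start close to one. Mrpl44 (chromosome 1, 79776018 to 79781445, + strand) overlaps Wdfy1 on the opposite strand, which differed by -0.53 (adjusted p = 0.024 by limma). Mrps27 starts 81 bases from the start of Ptcd2, which is read the other way and differed by -0.49 (limma adjusted p = 0.049). Mrpl21 (chromosome 19, 3282901 to 3292837, + strand) overlaps Ighmbp2 on the opposite strand, which differed by -0.34 and missed the threshold (limma adjusted p = 0.24). The library kit keeps strand, but whether the authors' quantification used it is not given in the sources used here. Signal of the overlapping pairs therefore cannot be told apart, while Mrps27 overlaps no other coding gene.

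In none of the 9 called members did the window of 250 bases before the start hold the AP-2 letters, beside 24.05% of tested genes. The Klf letters stood in 6 of the 9, beside 67.73% of tested genes. Of the 2 members called in siKlf5, Mrps33 held both motifs in the window printed above and Mrps2 neither. Members with both siTfap2c libraries above Ctrl numbered 20, 26.0% beside 36.5% of all genes, and 18 had both below, 23.4% beside 29.3%.

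**Figure D2:**
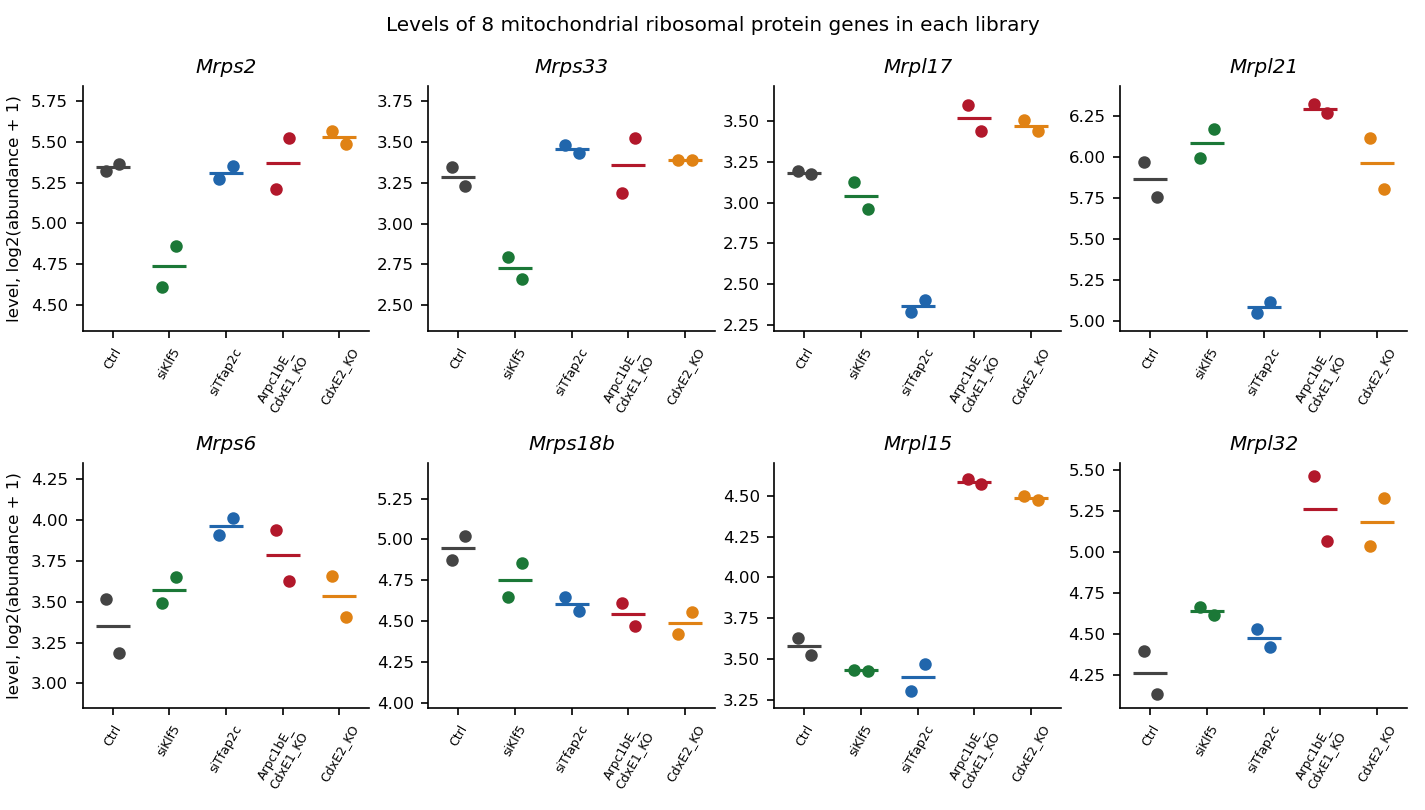
Levels in log2(abundance + 1) of 8 members in the 5 groups, with 1 point per library (replicate 1 left, replicate 2 right) and bars at the group means, each panel with its own axis range of at least 1.5 log2 units. Mrps2 and Mrps33 are lowest in siKlf5, Mrpl17 and Mrpl21 lowest in siTfap2c, and Mrpl15 and Mrpl32 highest in the 4 motif knockout libraries.

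The knockdowns shared their 2 control libraries, so their differences from Ctrl are not independent. Their call lists, of 2 and 9 of the 77 members, had 0 in common. Lists this short can share none without meaning, and the overlap over all genes was not counted. Compared directly, 7 of 77 members differed between siTfap2c and siKlf5, beside 25.6% of all genes. Mrpl21 (-1.003, limma adjusted p = 0.00036), Mrpl17 (-0.67, adjusted p = 0.0021), Mrpl44 (-0.58, adjusted p = 0.022), Mrpl48 (-0.56, adjusted p = 0.041) and Mrps26 (-0.28, adjusted p = 0.019) were lower in siTfap2c. Mrps33 (0.73, limma adjusted p = 0.0029) and Mrps2 (0.57, adjusted p = 0.0067) were higher there. Mrpl21, Mrpl17 and Mrps33 held in all 4 fits that left out 1 library. With libraries centred, 10 members were called, these 7 among them.

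In the knockout labelled Arpc1bE_CdxE1_KO most members were higher than in Ctrl as deposited, 75 of 77 by any amount, 97.4% beside 83.8% of all genes. The test called 34 of 77 higher, 44.2%, beside 23.2% of all genes, and 1 lower, Mrps18b, beside 0.815% of all genes. The median difference was 0.431, beside 0.273 for all genes. In 63 members, 81.8%, both knockout libraries lay above both Ctrl libraries, which was so for 61.9% of all genes. With libraries centred on their medians, 2 of 77 members were called, 2.60% beside 2.94% of all genes, Mrpl15 higher and Mrps18b lower. The centred median of the members was 0.110, beside -0.048 for all genes, and 29 members, 37.7%, lay above Ctrl with no overlap, beside 21.2% of all genes.

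The counts in Arpc1bE_CdxE1_KO moved with single libraries, and the counts over all genes moved in the same direction in each of these fits. Without Ctrl replicate 2 the count as deposited was 1, without Ctrl replicate 1 it was 7, and without Arpc1bE_CdxE1_KO replicate 1, the library that stood apart, it was 21, of which 20 were higher, 26.0% beside 16.7% of all genes. The median difference was 0.318 without Arpc1bE_CdxE1_KO replicate 1 and 0.527 without replicate 2. Without replicate 1 the median over all genes was 0.261. Centred and without replicate 1, the median of the members was 0.017, beside -0.040 for all genes, and Mrpl15 and Mrps18b were again the 2 called.

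In CdxE2_KO 19 of 77 members were called higher as deposited, 24.7% beside 28.5% of all genes, and again Mrps18b lower, beside 1.44% of all genes. The median difference was 0.284, beside 0.292 for all genes. Both knockout libraries lay above both Ctrl libraries in 54 members, 70.1% beside 66.4% of all genes. With libraries centred 3 members were called, 3.90% beside 6.24% of all genes: Mrpl15 higher, and Mrps18b and Mrpl48 lower. The centred median was -0.048, and 16 members, 20.8%, lay above Ctrl with no overlap, beside 26.1% of all genes. The count as deposited, 20 in all, fell in each fit that left out 1 library, as did the count over all genes.

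Mrpl15, the counterpart of bacterial L15 in the core of the large subunit, was at 3.63 and 3.52 log2 units in Ctrl, at 4.60 and 4.57 in Arpc1bE_CdxE1_KO and at 4.50 and 4.47 in CdxE2_KO. The 4 knockout libraries lay above all 6 others, which spanned 3.31 to 3.63. The difference was 1.01 (SE 0.10, limma adjusted p = 0.0024) and 0.91 (SE 0.10, limma adjusted p = 0.0032), and centred 0.69 (adjusted p = 0.017) and 0.57 (adjusted p = 0.025). It was called in all 4 fits that left out 1 library in each knockout. The gene lies on chromosome 1 (mm10, 4773206 to 4785739, - strand) and overlaps no other coding gene.

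Mrpl32, a large subunit protein that the m-AAA protease trims before assembly, was at 4.39 and 4.13 in Ctrl, at 5.46 and 5.06 in Arpc1bE_CdxE1_KO and at 5.04 and 5.33 in CdxE2_KO. The groups did not overlap. It differed by 1.00 (SE 0.17, limma adjusted p = 0.012) and 0.92 (SE 0.17, adjusted p = 0.011), and centred by 0.68 and 0.59, where it missed the threshold (adjusted p = 0.075 and 0.079). Mrpl50, a large subunit protein with no bacterial counterpart, was at 4.90 and 4.49 in Ctrl, 5.76 and 5.44 in Arpc1bE_CdxE1_KO and 5.58 and 5.44 in CdxE2_KO. All 4 knockout libraries lay above Ctrl, with differences of 0.91 (SE 0.17, limma adjusted p = 0.013) and 0.81 (SE 0.17, adjusted p = 0.014). Centred it differed by 0.59 and 0.48 (limma adjusted p = 0.094 and 0.12).

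In the small subunit Mrps14, in its head, was at 5.20 and 5.07 in Ctrl, 6.06 and 6.02 in Arpc1bE_CdxE1_KO and 5.61 and 5.98 in CdxE2_KO, with no overlap with Ctrl. It differed by 0.90 (SE 0.13, limma adjusted p = 0.0086) and 0.66 (SE 0.13, adjusted p = 0.014). Mrps12, at the decoding centre, was at 2.31 and 2.52 in Ctrl and between 3.06 and 3.27 in the 4 knockout libraries (differences 0.75 and 0.67, limma adjusted p = 0.015 and 0.016). Mrps31 differed by 0.66 and 0.51 (limma adjusted p = 0.0056 and 0.0077). Mrps14, Mrps12 and Mrps31 missed the threshold in both knockouts with libraries centred, where their lowest adjusted p was 0.065, of Mrps14 in Arpc1bE_CdxE1_KO. Without replicate 1 of that knockout the differences as deposited were 0.80 for Mrpl32, 0.75 for Mrpl50, 0.88 for Mrps14, 0.64 for Mrps12 and 0.66 for Mrps31. Of 4 fits that left out 1 library, their calls there held in 2, 3, 3, 2 and 3, in this order. In CdxE2_KO they held in 2, 1, 1, 0 and 0.

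Among the other large rises in Arpc1bE_CdxE1_KO as deposited were Mrpl27 (0.80, limma adjusted p = 0.013), Mrpl11 (0.79, adjusted p = 0.0064) and Mrpl46 (0.75, adjusted p = 0.014). Mrpl46 overlaps Mrps11 (0.57, limma adjusted p = 0.047) and Mrpl27 overlaps Eme1 (0.47, adjusted p = 0.030), each on the opposite strand. Signal of these pairs cannot be told apart. Centred, Mrps11 (0.25) and Eme1 (0.145) were not called. In CdxE2_KO Mrpl46 (0.63, limma adjusted p = 0.017), Mrps18a (0.59, adjusted p = 0.021) and Mrpl23 (0.57, adjusted p = 0.022) rose as well. With libraries centred, Mrpl27 (0.48), Mrpl11 (0.46) and Mrpl46 (0.42) missed the threshold in Arpc1bE_CdxE1_KO, with a lowest adjusted p of 0.060, of Mrpl11, as did Mrpl46 (0.30), Mrps18a (0.26) and Mrpl23 (0.24) in CdxE2_KO, where the lowest was 0.21. Without Arpc1bE_CdxE1_KO replicate 1 the differences as deposited were 0.80 for Mrpl27, 0.74 for Mrpl11 and 0.55 for Mrpl46. Of 4 fits that left out 1 library, their calls there held in 3, 2 and 2. In CdxE2_KO those of Mrpl46, Mrps18a and Mrpl23 held in 0, 0 and 1. In all, 18 members were called in both knockouts, 51.4% of the 35 called in the first and 90.0% of the 20 called in the second. Over all genes these shares were 74.3% and 59.6%, and both comparisons use the same 2 Ctrl libraries. Mrpl48, of the large subunit, was at 2.35 and 2.0 in Ctrl and at 1.83 and 1.67 in CdxE2_KO. Its difference was -0.43 as deposited (limma adjusted p = 0.093) and -0.76 centred (adjusted p = 0.044).

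Some members were called in opposite directions in the Tfap2c knockdown and in a motif knockout. Over all genes 11.9% were called lower in siTfap2c and 23.2% higher in Arpc1bE_CdxE1_KO as deposited. How many genes were called in both ways was not counted. Mrpl16 differed from Ctrl by -0.48 in siTfap2c and by 0.48 in Arpc1bE_CdxE1_KO as deposited, Mrpl24 by -0.35 and 0.57, and Mrpl21 by -0.78 and 0.43, all called by limma. The centred differences of these genes in Arpc1bE_CdxE1_KO were 0.16, 0.25 and 0.11, none called. Without replicate 1 of that knockout the differences as deposited were 0.52 for Mrpl24, 0.32 for Mrpl16 and 0.41 for Mrpl21. Of 4 fits that left out 1 library, their calls there held in 2, 1 and 0. Mrpl17, at -0.82 in siTfap2c, was not called in the knockouts. It stood at 3.44 to 3.59 in their 4 libraries as deposited, above both Ctrl libraries, but centred it differed by 0.0097 and -0.044. The comparisons share their controls, and no test set siTfap2c against the knockouts.

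Compared with each other, the 2 knockouts had 0 members called by limma, beside 0.0458% of all genes, and 8 of 77 at an unadjusted p under 0.05, beside 1238 of 10920 genes in all. In CdxE2_KO 13 of 77 members, 16.9%, were above Arpc1bE_CdxE1_KO, beside 53.3% of all genes, with a median difference of -0.136, beside 0.017 for all genes. Mrpl48 (adjusted p = 0.29), Mrpl19 (0.32), Mrpl11 (0.36) and Mrpl27 (0.40) had the lowest p-values. The median was -0.052 without Arpc1bE_CdxE1_KO replicate 1 and -0.232 without replicate 2, and 2 members, Mrpl52 and Mrps22, were called in the latter fit.

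**Figure D3:**
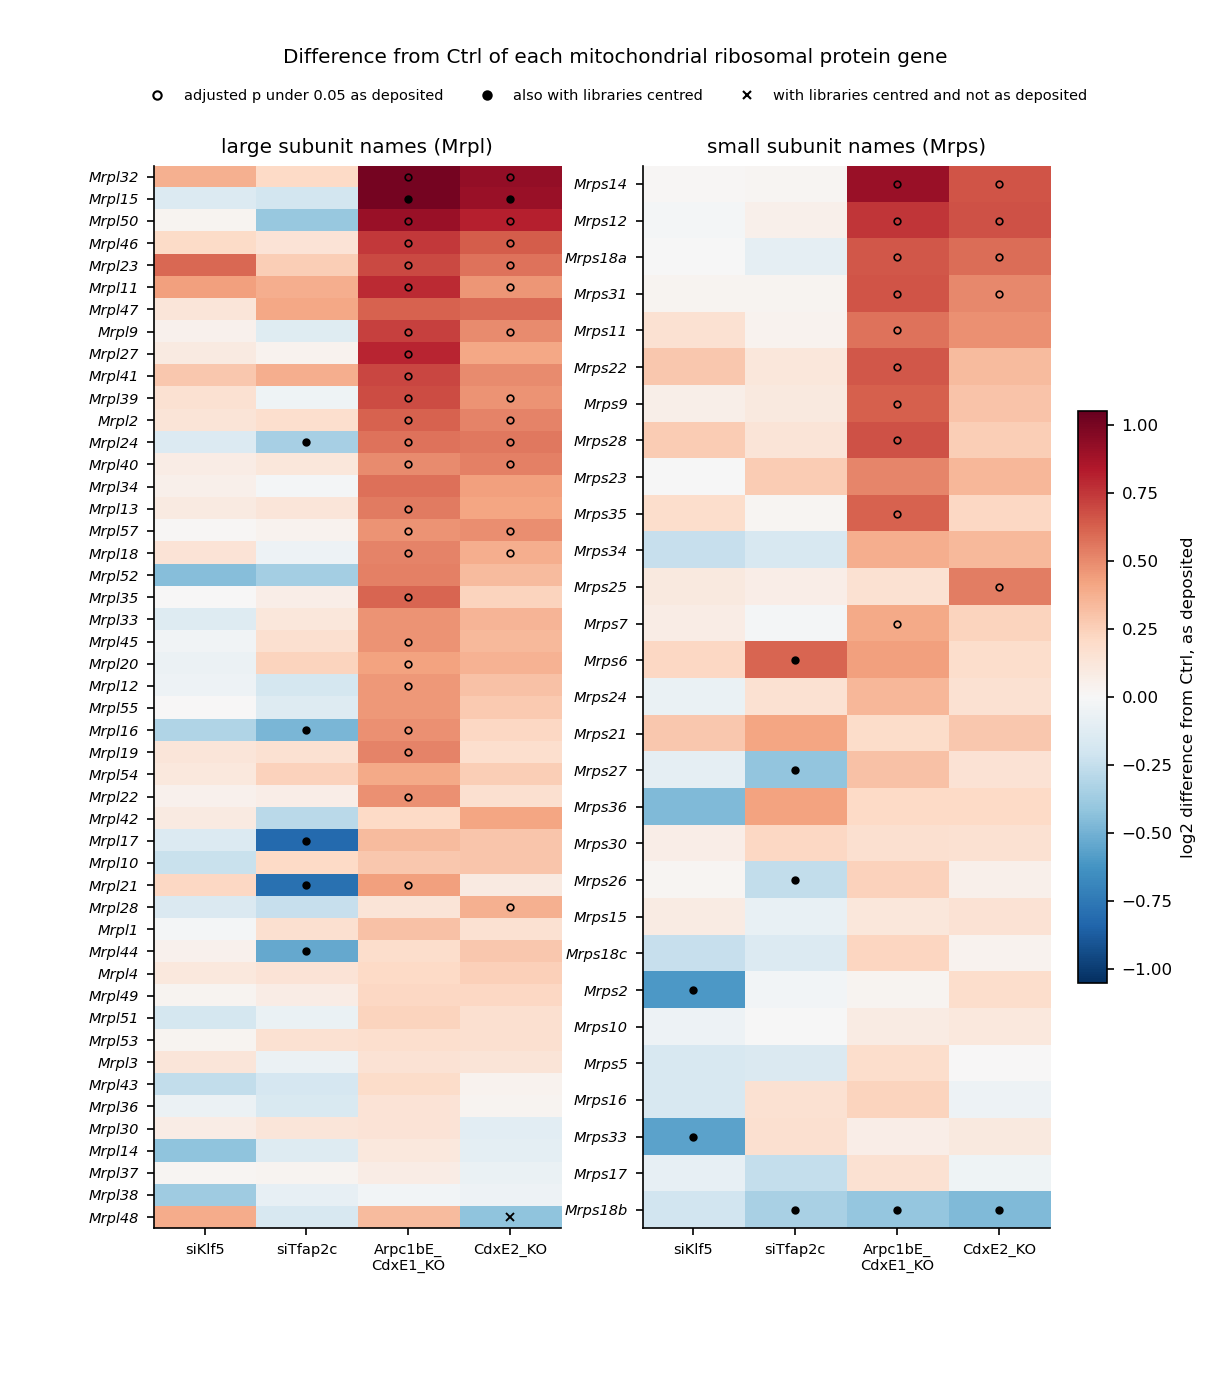
Log2 difference from Ctrl, as deposited, of each of the 48 Mrpl and 29 Mrps genes (rows, ordered by the mean of the 2 motif knockout differences) in the 4 comparisons (columns), with red for higher and blue for lower. Open circles mark an adjusted p under 0.05 as deposited only, filled circles one also with libraries centred, and the cross 1 gene, Mrpl48, called with libraries centred and not as deposited. In the knockout columns Mrpl15 and Mrps18b are the filled ones among 35 and 20 calls.

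The large and the small subunit were then set side by side. In siKlf5 the median difference from Ctrl was 0.036 for Mrpl and -0.003 for Mrps genes, and in siTfap2c 0.035 and 0.026. In Arpc1bE_CdxE1_KO it was 0.472 and 0.309 as deposited, with 24 of 48 Mrpl and 10 of 29 Mrps genes called higher. In CdxE2_KO it was 0.320 and 0.207, with 14 of 48 (29.2%) and 5 of 29 (17.2%) called higher. Over all genes the medians in these 2 knockouts were 0.273 and 0.292, with 23.2% and 28.5% called higher. Centred, the Mrpl and Mrps medians were 0.152 and -0.012 in Arpc1bE_CdxE1_KO, and -0.011 and -0.124 in CdxE2_KO. With libraries centred, 1 Mrpl and 0 Mrps genes were called higher in each knockout. Called lower were 0 and 1 in Arpc1bE_CdxE1_KO, and 1 and 1 in CdxE2_KO. The gap between the medians, 0.164 in Arpc1bE_CdxE1_KO and 0.113 in CdxE2_KO, is the same with libraries centred, since centring moves both subunits alike.

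Within single libraries, the median Mrpl level minus the median Mrps level was -0.184 and -0.355 in Ctrl, -0.236 and -0.389 in siKlf5 and -0.151 and -0.144 in siTfap2c. It was 0.104 and 0.200 in Arpc1bE_CdxE1_KO and 0.064 and -0.037 in CdxE2_KO. All 4 knockout libraries lay above all 6 others. By means in place of medians the groups met: the gap was 0.164 and 0.044 in Ctrl, 0.185 and 0.145 in siKlf5, -0.002 and 0.072 in siTfap2c, and 0.164 to 0.227 in the 4 knockout libraries. Moving Mrps18a and Mrps30, whose proteins sit in the large subunit, to the Mrpl genes and leaving out Mrps36 gave gaps of medians between the differences of 0.144 and 0.120. Without Ctrl replicate 2 the gap in Arpc1bE_CdxE1_KO was 0.052, and without its own replicate 1 it was 0.088. With 2 libraries a group no test of the gap was made.

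Split by descent, the members with a counterpart in bacterial ribosomes and those particular to mitochondria were set side by side. In Arpc1bE_CdxE1_KO the medians in the large subunit were 0.481 over 30 shared genes, 17 of them called higher, and 0.364 over 18 specific ones, 7 called higher. In the small subunit the order was the other way, 0.232 over 17 shared genes and 0.377 over 9 specific ones. Of these, 6 and 3 were called higher and 1 shared gene lower, beside 23.2% and 0.815% of all genes. In CdxE2_KO the medians were 0.333 and 0.306 in the large and 0.181 and 0.333 in the small subunit. Centred, the medians in the same order were 0.160, 0.043, -0.089 and 0.056 in Arpc1bE_CdxE1_KO and 0.002, -0.025, -0.150 and 0.002 in CdxE2_KO. Without replicate 1 those of Arpc1bE_CdxE1_KO were 0.397, 0.296, 0.196 and 0.305 as deposited. In siTfap2c 4 of the 5 Mrpl genes called lower have bacterial counterparts, beside 30 of all 48 Mrpl genes.

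**Figure D4:**
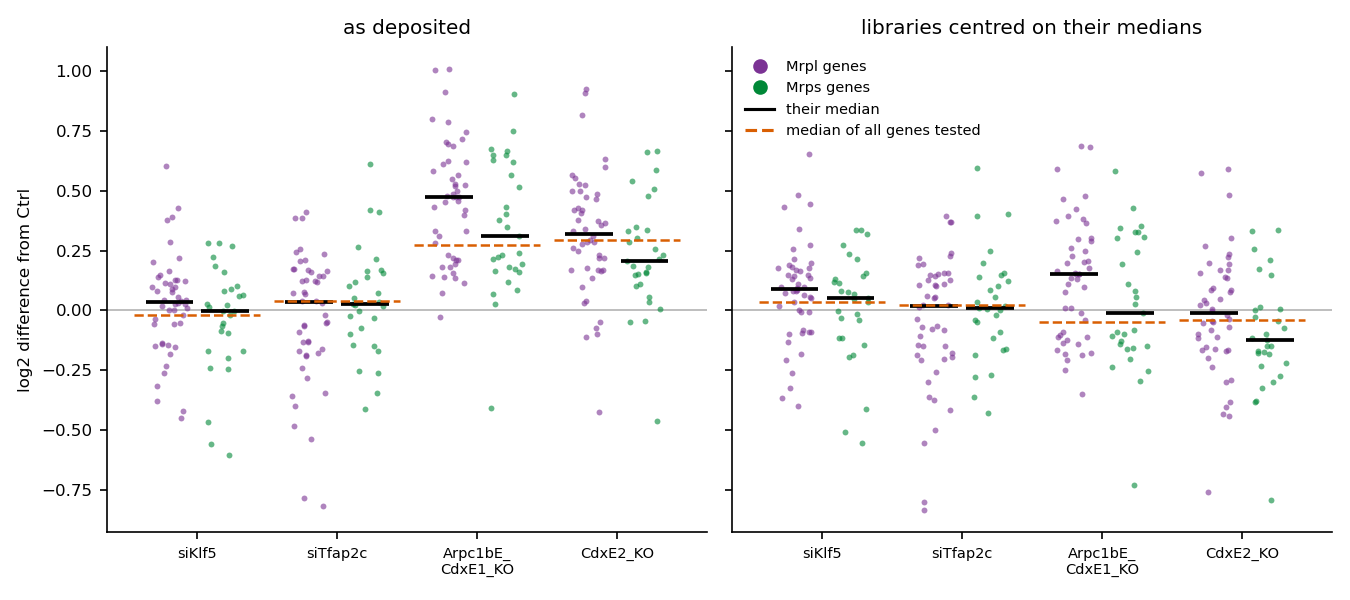
Log2 difference from Ctrl of the Mrpl (purple) and Mrps (green) genes in the 4 comparisons, 1 point per gene, as deposited (left) and with libraries centred (right). Black bars are the medians of each subunit, at 0.472 and 0.309 in Arpc1bE_CdxE1_KO as deposited, and dashed lines the median of all genes tested.

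**Figure D5:**
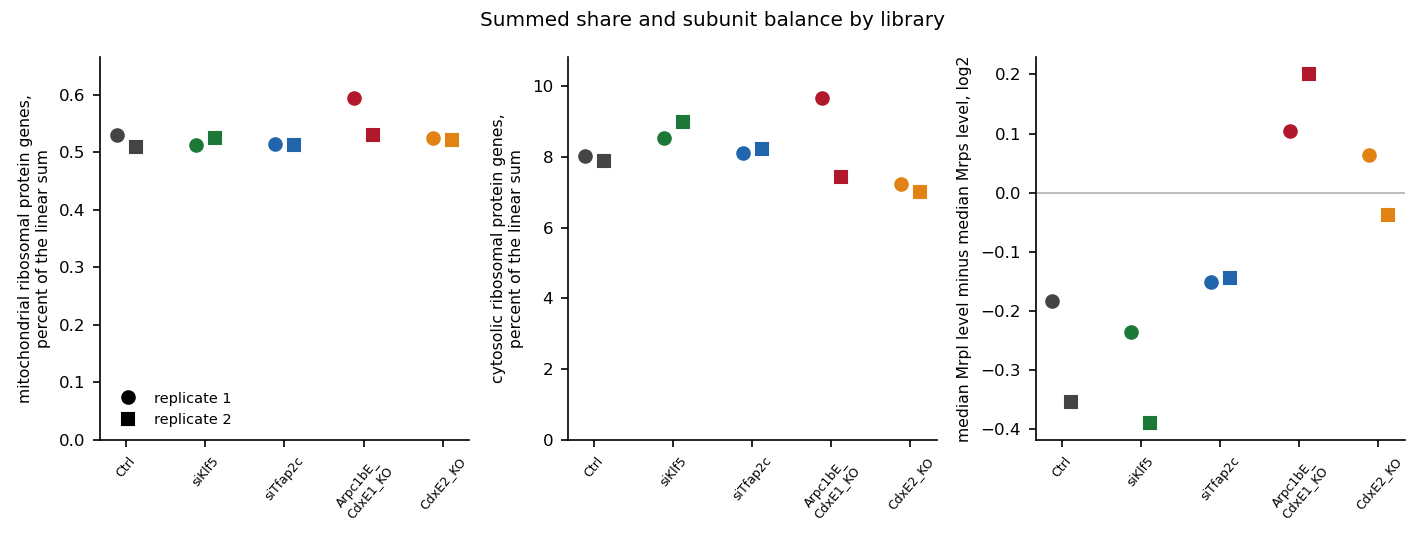
Share of each library's linear sum held by the mitochondrial (left) and the cytosolic ribosomal protein genes (middle), in percent, and the median Mrpl minus median Mrps level in log2 units (right), by group with circles for replicate 1 and squares for replicate 2. Arpc1bE_CdxE1_KO replicate 1 is highest in both shares, at 0.594% and 9.66%, and the 4 motif knockout libraries are highest in the subunit gap.

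The Mrps18 genes are 3 paralogs that descend from the gene of a single bacterial protein, S18. Mrps18b and Mrps18c belong to the small subunit and Mrps18a to the large one. Mrps18b was at 4.88 and 5.02 log2 units in Ctrl, 4.65 and 4.85 in siKlf5, 4.64 and 4.56 in siTfap2c, 4.61 and 4.47 in Arpc1bE_CdxE1_KO and 4.42 and 4.56 in CdxE2_KO. All 8 libraries of the other groups lay below both of Ctrl. It was called lower in siTfap2c and both knockouts (-0.34, -0.41 and -0.46, limma adjusted p = 0.041, 0.036 and 0.021), and centred in the knockouts by -0.73 and -0.79 (adjusted p = 0.020 and 0.012). All of these rest on the same 2 Ctrl libraries, and as deposited the calls held in 0, 1 and 0 of 4 fits that left out 1 library.

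Mrps18a was at 5.31 and 5.12 in Ctrl and higher in the knockouts, by 0.65 and 0.59 as deposited (limma adjusted p = 0.020 and 0.021), with values of 5.68 to 6.05 in these 4 libraries. Centred it missed the threshold (adjusted p = 0.20 and 0.27). Mrps18c was at 5.20 and 4.82 in Ctrl and overlapped Ctrl in all 4 other groups as deposited, with 5.41 and 5.06 in Arpc1bE_CdxE1_KO and 5.13 and 4.96 in CdxE2_KO. Mrps18b starts 45 bases from Ppp1r10, read the other way, which differed by 0.07, -0.11 and -0.05 in the same 3 comparisons and was called in none of them. Centred, Ppp1r10 differed by -0.43 and -0.39 in the knockouts (limma adjusted p = 0.15 in both), in the same direction as Mrps18b.

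Across the 4 comparisons with Ctrl, 33 of 77 members, 42.9%, were called in none, beside 48.0% of the genes tested in all 4. They include Mrpl10 of the stalk, Mrps30, Mrps5 and Mrps16 of the small subunit, and Mrpl3 and Mrpl4 of the large one.

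Other genes of mitochondrial translation were looked at as lists, whose counts stand beside the 23.2% and 28.5% of all genes called higher in the 2 knockouts as deposited. Called lower were 0.815% and 1.44%. With libraries centred, 178 and 288 of 10920 genes were called higher, and 143 and 393 lower. In siTfap2c 12.6% of all genes were called higher and 11.9% lower, and in siKlf5 2.25% and 5.27%. Of 6 mitochondrial ribosome proteins that do not carry Mrp symbols, 3 were called higher in each knockout as deposited and 0 with libraries centred. Chchd1 differed by 0.95 and 0.63, Gadd45gip1 by 0.58 and 0.48, and Aurkaip1 by 0.53 and 0.46. In the knockdowns 0 of 6 were called. The medians of this list, 0.467 and 0.345 in the knockouts, lie beside 0.431 and 0.284 for the members. Without Arpc1bE_CdxE1_KO replicate 1, 2 of the 6 were called there.

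Of 14 tested translation factors, 1 was called higher and 1 lower in Arpc1bE_CdxE1_KO. Mrrf, the ribosome recycling factor, differed by 0.83 (limma adjusted p = 0.029) and Mtif3, an initiation factor, by -0.66 (adjusted p = 0.015). With libraries centred, 0 of the 14 were called higher and 1 lower in each knockout. In siTfap2c Oxa1l, the insertase that takes up nascent chains at the inner membrane, differed by -0.38 (limma adjusted p = 0.045). Of 24 assembly and rRNA modification factors, 2 rose and 1 fell in siTfap2c. Dhx30, a helicase, differed by 0.52 (limma adjusted p = 0.0026), Eral1, which binds the small subunit's rRNA, by 0.41 (adjusted p = 0.045), and Mettl17, which acts in small subunit assembly, by -0.58 (adjusted p = 0.022). In both knockouts Ybey, Gtpbp10 and Ddx28 were called higher as deposited, and 0 of 24 with libraries centred. Without Arpc1bE_CdxE1_KO replicate 1, Mtif3 (-0.59) and Ybey (0.95) kept their calls there, and Mrrf, Gtpbp10 and Ddx28 did not.

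Among 20 tested mitochondrial aminoacyl-tRNA synthetases and amidotransferase genes, Lars2, the leucyl-tRNA synthetase, stood out in the knockouts. It was at 4.36 and 4.36 log2 units in Ctrl, 4.55 and 4.58 in siKlf5, 4.42 and 4.65 in siTfap2c, 7.55 and 7.63 in Arpc1bE_CdxE1_KO and 7.42 and 7.45 in CdxE2_KO. The 4 knockout libraries lay above the 6 others, with differences from Ctrl of 3.23 and 3.08 (limma adjusted p = 3.4e-06 and 4.8e-06), and it was called centred and without Arpc1bE_CdxE1_KO replicate 1 too. The Lars2 transcript is known to carry a stretch that resembles ribosomal RNA, so its value is uncertain in total RNA libraries. Rn45s, the ribosomal RNA precursor, held 6.68% ± 0.49 (SD, n = 2) of the linear sum in Ctrl, 7.06% ± 1.43 in Arpc1bE_CdxE1_KO and 7.02% ± 0.63 in CdxE2_KO, and its part in the result was not tested. No member moved by as much, Mrpl15 at 1.01 being the furthest. Wars2, the tryptophanyl-tRNA synthetase, was at 3.66 and 3.58 in Ctrl, 3.21 and 2.95 in siKlf5 and 2.72 and 2.65 in siTfap2c. Both knockdowns lay below Ctrl, with differences of -0.54 (limma adjusted p = 0.029) and -0.94 (adjusted p = 0.00053).

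Of the genes for mitochondrial transcription and DNA, Polrmt, the mitochondrial RNA polymerase, differed by -0.41 in siTfap2c (limma adjusted p = 0.0034), as 1 of 13 tested. In the knockouts 4 and 7 of 12 were called higher as deposited and 0 centred (1 of 12 in Arpc1bE_CdxE1_KO without replicate 1, as deposited), with Tfam, which packs mitochondrial DNA, at 0.56 and 0.68 and Ssbp1 at 0.79 and 0.75. The nuclear genes of oxidative phosphorylation had 37 of 80 called higher and 1 lower in Arpc1bE_CdxE1_KO (median 0.435) and 23 and 1 in CdxE2_KO (median 0.288). Centred, 5 of them were higher and 1 lower in Arpc1bE_CdxE1_KO (median 0.114), and 2 higher and 3 lower in CdxE2_KO (median -0.044). The cytosolic ribosomal proteins had 41 of 84 higher and 2 lower in Arpc1bE_CdxE1_KO (median 0.481) and 14 and 2 in CdxE2_KO (median 0.225), and centred 2 higher and 2 lower (median 0.160) and 0 and 4 (median -0.106). Without Arpc1bE_CdxE1_KO replicate 1 the medians there as deposited were 0.351 for oxidative phosphorylation and 0.268 for the cytosolic ribosomal proteins, beside 0.318 for the members and 0.261 for all genes. With all libraries the medians of the mitochondrial ribosomal protein genes were 0.431 and 0.284. Which part of these differences goes with the shift over all genes was not tested.

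In the genome the 77 members lie apart, on 17 chromosomes, and 4 are on chromosome 5, which carries Arpc1b and Cdx2. The nearest to Arpc1b, Mrps17 (chromosome 5, 129715497 to 129722556, + strand), lies 15398718 bases from it. It was called in none of the 4 comparisons. Of the members 26 overlap another coding gene. In 18, 23.4%, a coding gene read the other way starts within 1000 bases, against 11.1% of tested coding genes. The median length of their longest transcript is 1849 bases, against 3431 for tested coding genes.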

How the data were processed

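Total RNA of BDF1 8-cell embryos was made into stranded libraries with random primers and depletion of ribosomal RNA after amplification, per the labels' protocols. The authors deposited log2 values in 3 tables of 24421 genes. The submitters' processing notes name mm10, HISAT2 2.1.0, SAMtools 1.7, StringTie 1.3.4 and Cufflinks. The role of each tool, the kind of abundance and any scaling between tables are not given in the sources used here. That the values are log2(abundance + 1) was read from exact zeros and none below 0. With no read counts the depth of each library is unknown, and no counting interval can be given.

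Libraries were grouped by their treatment labels and titles. limma 3.58.1 in R 4.3.3 (empirical Bayes with a trend) was run on the log2 values as deposited, for each gene that reached 1 linear unit in 2 or more of the libraries fitted. The knockdowns and Ctrl were fitted with all 10 libraries (11195 genes, 5 residual degrees of freedom), and the motif knockouts and Ctrl in their own table (10920 genes, 3 residual degrees of freedom). P-values are two-sided and Benjamini-Hochberg adjusted over all genes of a fit. The fits were tested on simulated data.

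The members, the other gene lists and the markers were chosen with earlier results of these data known. Members given with values are, per comparison, the called ones, at most 8 in each direction by size, or the 4 of lowest p where fewer than 4 were called, besides the 3 highest and 3 lowest in Ctrl and the Mrps18 paralogs. Of the other lists at most 4 called genes by lowest p were named. Mrpl37, Mrpl42, Mrpl52, Mrps17, Mrps22, the genes listed as never called, the neighbouring genes and the members of printed promoters were named after their values were seen. Of the mitochondrially encoded genes 0 were found in the tables by symbol. Gene positions are from GENCODE M21 (mm10), matched by symbol for all 77 members, and promoters from RefSeq GRCm38.p6, with 68 matched.

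Alternatives were a filter at 5 units, no filter, added constants of 0.1 and 10, each library left out, fits of only the 4 libraries compared, a replicate block and centring. Added after the data were seen were equal linear sums, reassigned subunit genes, centring without Arpc1bE_CdxE1_KO replicate 1, and the other lists without that library.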

Additional observations from a re-analysis of the deposited data

How the results depend on the processing

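Of the counts of called members, those in the knockouts moved most. With libraries centred they were 2 in Arpc1bE_CdxE1_KO and 3 in CdxE2_KO, against 35 and 20 as deposited, with no filter on low values 15 and 9, with equal linear sums 2 and 2, and with centring and without Arpc1bE_CdxE1_KO replicate 1 they were 2 and 6. With only the 4 libraries compared, CdxE2_KO had 31, beside 4262 of 10524 genes in all. Over all genes the counts in the 2 knockouts were 321 and 681 of 10920 with libraries centred. They were 1166 and 1858 of 20769 with no filter, and 313 and 696 of 10920 with equal linear sums. Leaving out 1 library gave 1 to 39 in Arpc1bE_CdxE1_KO and 1 to 5 in CdxE2_KO. The median difference, 0.431 and 0.284 as deposited, was 0.11 and -0.048 centred, 0.104 and 0.011 with equal sums, 0.241 and 0.155 with 10 added in place of 1, 0.017 and -0.049 centred without Arpc1bE_CdxE1_KO replicate 1, and 0.318 to 0.527 and 0.239 to 0.329 with 1 library left out. With 0.1 added the median in CdxE2_KO was 0.309.

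In siKlf5 the count of 2 was 0 with no filter, 1 with 10 added and 0 to 1 with 1 library left out. In siTfap2c the count of 9 was 4 with no filter, 15 with only the 4 libraries compared and 2 to 5 with 1 library left out. Between siTfap2c and siKlf5 the count of 7 was 11 with only the 4 libraries compared and 4 to 5 with 1 library left out, and between the knockouts the count of 0 was 0 to 2. Over all genes, the fits of only the 4 libraries compared called 3303 of 10228 in siTfap2c and 3277 of 10123 between the knockdowns. With no filter, 507 of 21687 genes were called in siKlf5 and 2357 of 21687 in siTfap2c. With 10 added, 646 of 11195 genes were called in siKlf5. Where an arm had 1 library, it was taken to vary like the other groups. Among single members, 1 difference changed sign: Mrpl20 in Arpc1bE_CdxE1_KO was -0.039 centred and without replicate 1 (adjusted p = 0.83 by limma). Over the named members and their alternatives, 700 values kept their side of the threshold, 396 missed it and 2 newly passed it. Except where the alternative itself tests fewer genes or samples, the cause was not tested.

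Over all genes tested, deviations of same-numbered libraries from their group means correlated between -0.05 and 0.044 over 10 pairs of groups. Of 84 cytosolic ribosomal proteins, 64 were higher in replicate 1 in Ctrl, 79 in Arpc1bE_CdxE1_KO and 59 in CdxE2_KO. In siKlf5 it was 19 and in siTfap2c 30. Whether replicates of the same number share an effect on part of the genes was not tested. With the replicate number as a block the counts were 2 in siKlf5, 9 in siTfap2c (8 shared with the fit without it), 37 in Arpc1bE_CdxE1_KO (34 shared), 23 in CdxE2_KO (20 shared), 7 between the knockdowns (6 shared) and 0 between the knockouts. Over all genes the counts in the same order were 706 and 2615 of 11195, 2483 and 3087 of 10920, 2735 of 11195 and 4 of 10920.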
